A study of Mus musculus with 23 samples.

Results

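Described here are the mouse major histocompatibility complex (MHC) class II genes H2-Aa, H2-Ab1, H2-Eb1, H2-DMa, H2-DMb1 and H2-Oa, the invariant chain gene Cd74, and Ciita, the gene of the class II transactivator, in quadriceps muscle of mice given corticosterone. These 8 genes were matched by symbol to the 55573 genes of the count table. Of the 13049 genes with enough counts to be tested, 7 were members, and H2-Oa was the member with too few counts. The members were selected on their fold change between corticosterone and vehicle in these same mice, where earlier results had shown them lower. Their differences between corticosterone and vehicle mice are therefore given as a description without a p-value. Counts of members past a threshold in comparisons that use corticosterone mice are a description too. The other tests below concern values that did not choose the members.

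RNA was sequenced from the quadriceps of 23 C57Bl6 mice (C57BL/6J in the study's methods) aged 8 to 10 weeks. The mice carried a slow-release pellet under the skin for 14 days and were fasted for 5 hours before collection. The pellet held 50 mg corticosterone, the main glucocorticoid of mice, in the groups Female_CORT (5 mice) and Male_CORT (6 mice), and cholesterol without corticosterone in Female_VEH (6 mice) and Male_VEH (6 mice). Whole muscle was extracted, so fewer cells of a type and less RNA per cell cannot be told apart in any value below.

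MHC class II molecules are pairs of an alpha and a beta chain that display peptides from engulfed proteins to CD4+ T helper cells. The invariant chain guides the new pairs to the endosome and blocks their groove, and the H2-DM pair then exchanges the remaining fragment for a peptide, a step that the H2-O pair restrains. Ciita does not itself bind DNA but joins the RFX complex, CREB and NF-Y on the X and Y boxes of class II promoters, and its own level largely sets class II transcription. Resident macrophages and dendritic cells are the usual carriers in skeletal muscle, while resting muscle fibres hold little or none.

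The X and Y boxes are shown because they are the promoter feature through which Ciita reaches its targets. RefSeq promoter windows of 300 bases (GRCm38.p6, 250 bases before the start of the gene) were found for 5 of the 8 members, H2-Aa, H2-Eb1, H2-DMa, H2-DMb1 and H2-Oa. Printed 5′ to 3′ on the strand of the gene are chr17:34287867-34287933 of H2-Aa (minus strand), chr17:34305746-34305812 of H2-Eb1 (plus strand), chr17:34092274-34092340 of H2-Oa (plus strand) and, for comparison, chr17:34238786-34238852 of H2-Ob (plus strand), the beta chain that pairs with H2-Oa. The capitals mark a GNAAC core of the X box and the TGATTGG letters of the Y box, which end each stretch.
H2-Aa: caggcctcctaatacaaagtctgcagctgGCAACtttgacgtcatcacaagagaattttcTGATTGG
H2-Eb1: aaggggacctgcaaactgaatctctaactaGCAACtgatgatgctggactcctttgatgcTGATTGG
H2-Oa: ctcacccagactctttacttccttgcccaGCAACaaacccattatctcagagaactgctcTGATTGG
H2-Ob: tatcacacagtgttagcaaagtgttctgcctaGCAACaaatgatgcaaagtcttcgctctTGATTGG
The cores lay 26, 25, 26 and 23 bases before the Y box in H2-Aa, H2-Eb1, H2-Oa and H2-Ob, and the Y box began 45 to 61 bases before the RefSeq start on which each window was built. H2-DMb1 held the same arrangement with the core GTAAC and a gap of 26 bases. Neither of the 2 windows of H2-DMa held TGATTGG. These letters were chosen after the windows had been read, both strands were searched, and a match is a description of the sequence and not a bound site. GNAAC alone was in 9 of the 9 class II windows and in 84.8% of all 32851 windows, so by itself it sets few windows apart. TGATTGG was in 7 of the 9 class II windows and in 7.82% of all windows. GNAAC followed by TGATTGG after 15 to 45 bases was in 6 of the 9 and in 0.852% of all. The letters GNACANNNTGTNC, the shape of a glucocorticoid response element, were in 0 of the 9 and in 0.475% of all, which says only that these letters were not in these windows.

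On GRCm38, the 6 class II chain genes lay on chromosome 17 between base 34092340, the start of H2-Oa in the GENCODE annotation (which lies upstream of its RefSeq start), and base 34316674, the end of H2-Eb1. Cd74 lay on chromosome 18 at 60803848 to 60812652 and Ciita on chromosome 16 at 10480059 to 10528418, both on the plus strand. H2-DMa shared 360 exonic bases with Brd2, Ciita 329 with Dexi and H2-Oa 321 with BC051537, each on the opposite strand, which the authors' strand-specific counting kept apart. The transcripts of H2-DMb1 and its neighbour H2-DMb2 were 94.5% identical over 1254 aligned bases with an identical run of 221 bases, longer than a read, so the division of their reads is uncertain.

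Each mouse had between 20904150 and 21984477 counts assigned to genes. Levels are given as CPM, read counts scaled to the size of the library by the TMM method, and 3 counts in a library correspond to at most 0.166 CPM. Fkbp5, a classical target of the glucocorticoid receptor, rose in males (log2 fold change 3.36 ± 0.30, SE) and in females (3.05 ± 0.30). Of 5 such targets, with Tsc22d3, Per1, Sgk1 and Zbtb16, 5 were higher in males and 1, Fkbp5, in females by edgeR. Among all tested genes 13.2% and 7.40% were higher. A difference of the response between the sexes passed for 0 of the 5. Their summed CPM was 1222 to 1581 in corticosterone males and 436 to 1189 in corticosterone females. With vehicle it was 353 to 622 in males and 241 to 579 in females, so F4, at 436 CPM, lay within the vehicle range. None of the 7 muscle fibre markers, Acta1 and Ckm among them, passed the edgeR test in either sex (1 of 7 in each sex at an unadjusted p of 0.05, and by DESeq2 1 in males and 0 in females, by limma-voom 0 in both). Liver transcripts such as Alb differed widely among mice, with summed CPM of 6 liver genes from 14 to 2345, and adipocyte transcripts ranged from 30.3 to 4147; their part in the results was not tested.

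In vehicle muscle, Cd74 was the most abundant member per kilobase of exon, at 42.5 ± 13.1 CPM per kilobase in males and 37.9 ± 13.4 in females (SD, n = 6 each). H2-Ab1, H2-Eb1 and H2-Aa followed at 12.8 ± 3.1, 12.3 ± 2.6 and 10.6 ± 3.0 in males. These 3 lay within their spread of each other. H2-DMb1 at 1.97 ± 0.63 and H2-DMa at 1.37 ± 0.33 came next and also overlapped, with Ciita at 0.158 ± 0.038 and H2-Oa at 0.0444 ± 0.0505 CPM per kilobase below them. The order was the same in vehicle females except that H2-Eb1 (11.5 ± 3.4) and H2-Ab1 (11.3 ± 4.2) changed places. The length counts every base in any annotated exon, 3798 for H2-Aa and 1944 for H2-Eb1. An annotated transcript of each has 1128 and 1171 bases, so the order depends on the length used. In CPM without length, vehicle males held 40.3 ± 11.3 of H2-Aa, 32.7 ± 8.0 of H2-Ab1 and 23.9 ± 5.1 of H2-Eb1. H2-DMa (4.73 ± 1.13) then lay above H2-DMb1 (3.31 ± 1.06).

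H2-Aa, the alpha chain of the I-A molecule, held 26.6 to 54.4 CPM in vehicle males (median 40.9) and 0.380 to 2.08 CPM in corticosterone males (median 1.24). Vehicle females held 24.4 to 53.7 CPM (median 35.7), and the 5 corticosterone females held 0.546, 6.21, 8.41, 1.18 and 4.77 CPM. Every corticosterone mouse lay below every vehicle mouse of its sex, and 3 of the corticosterone females lay above all corticosterone males. The log2 fold change was -5.0 ± 0.49 (SE) in males, 32.0-fold lower, and -3.13 ± 0.47 in females, 8.75-fold lower.

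H2-Ab1, the beta chain of I-A, held 21.4 to 42.2 CPM in vehicle males (median 33.5) and 0.221 to 1.67 CPM in corticosterone males (median 0.675). In females the vehicle range was 18.6 to 48.2 CPM (median 27.2), and the corticosterone mice held 0.682, 4.0, 5.17, 0.837 and 3.62 CPM. The groups did not overlap in either sex. H2-Ab1 was 40.2-fold lower in corticosterone males (log2 fold change -5.33 ± 0.46) and 10.1-fold lower in corticosterone females (-3.33 ± 0.43).

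H2-Eb1, the beta chain of the I-E molecule, held 16 to 31.2 CPM in vehicle males (median 24.8) against 0.142 to 1.25 CPM in corticosterone males (median 0.496). Female values were 15.6 to 33.2 CPM with vehicle (median 20.9) and 0.318, 2.75, 4.85, 0.787 and 2.58 CPM with corticosterone. Again the treated and vehicle mice did not overlap. The log2 fold change was -5.21 ± 0.48 in males and -3.30 ± 0.45 in females. H2-Ea-ps, the alpha chain gene of I-E that C57BL/6 mice carry in a defective form, had no counts in any of the 4 groups.

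Cd74, the invariant chain, held 42.5 to 99.5 CPM in vehicle males (median 74.1) and 1.33 to 4.35 CPM in corticosterone males (median 1.76). Vehicle females held 41.8 to 100.6 CPM (median 58.6), and corticosterone females held 1.77, 10.4, 14.9, 1.92 and 8.11 CPM. All treated mice lay below all vehicle mice of their sex. The log2 fold change was -4.95 ± 0.47 in males, 30.9-fold lower, and -3.10 ± 0.46 in females, 8.56-fold lower. The log2 fold changes of the invariant chain and of the I-A and I-E chains differed from each other by less than 1 SE within each sex.

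H2-DMa, the alpha chain of the peptide exchange factor, had the smallest difference of the members tested. It held 3.63 to 6.74 CPM in vehicle males (median 4.51) and 0.648 to 1.54 CPM in corticosterone males (median 1.20). Vehicle females held 3.62 to 6.31 CPM (median 4.62), and corticosterone females held 1.5, 1.69, 1.70, 1.33 and 1.87 CPM with little spread among them. The log2 fold change was -2.09 ± 0.20 in males and -1.56 ± 0.21 in females, with no overlap between treated and vehicle mice.

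H2-DMb1, its partner, held 2.30 to 4.95 CPM in vehicle males (median 2.94) and 0.166 to 0.441 CPM in corticosterone males (median 0.269). In females it held 1.66 to 4.85 CPM with vehicle (median 2.62) and 0.546, 0.963, 1.41, 0.394 and 1.19 CPM with corticosterone. The log2 fold change was -3.51 ± 0.35 in males and -1.71 ± 0.33 in females. The beta chain was thus 11.4-fold lower in corticosterone males and the alpha chain 4.25-fold lower, while in females the values of 3.28-fold and 2.96-fold lay within their error of each other.

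Ciita was counted in small numbers. Vehicle males held 20 to 46 reads (median 30) and vehicle females 13 to 40 (median 20). In corticosterone males the 6 libraries held 0, 2, 0, 0, 0 and 1 reads, and in corticosterone females the 5 libraries held 1, 6, 5, 1 and 1. No treated mouse reached the lowest vehicle mouse of its sex. Summed over the groups, Ciita had 191 reads in vehicle and 3 in corticosterone males, a 61.6-fold difference with a 95% exact counting interval of 20.8 to 301, and 140 against 14 reads in females, an 8.61-fold difference (4.96 to 16.2). These intervals cover counting error only. The fitted log2 fold changes were -5.63 ± 0.55 in males and -3.04 ± 0.46 in females.

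H2-Oa, the alpha chain of the modulator of H2-DM, had at most 4 reads in any mouse. Its group sums were 6 reads in vehicle and 5 in corticosterone females, a 1.03-fold difference with an exact counting interval of 0.263 to 4.28. In males they were 8 and 0 reads, 2.58-fold lower with the 0 set to 3 reads over the group. This value leaves out the counting error of the 8 reads.

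**Figure D1:**
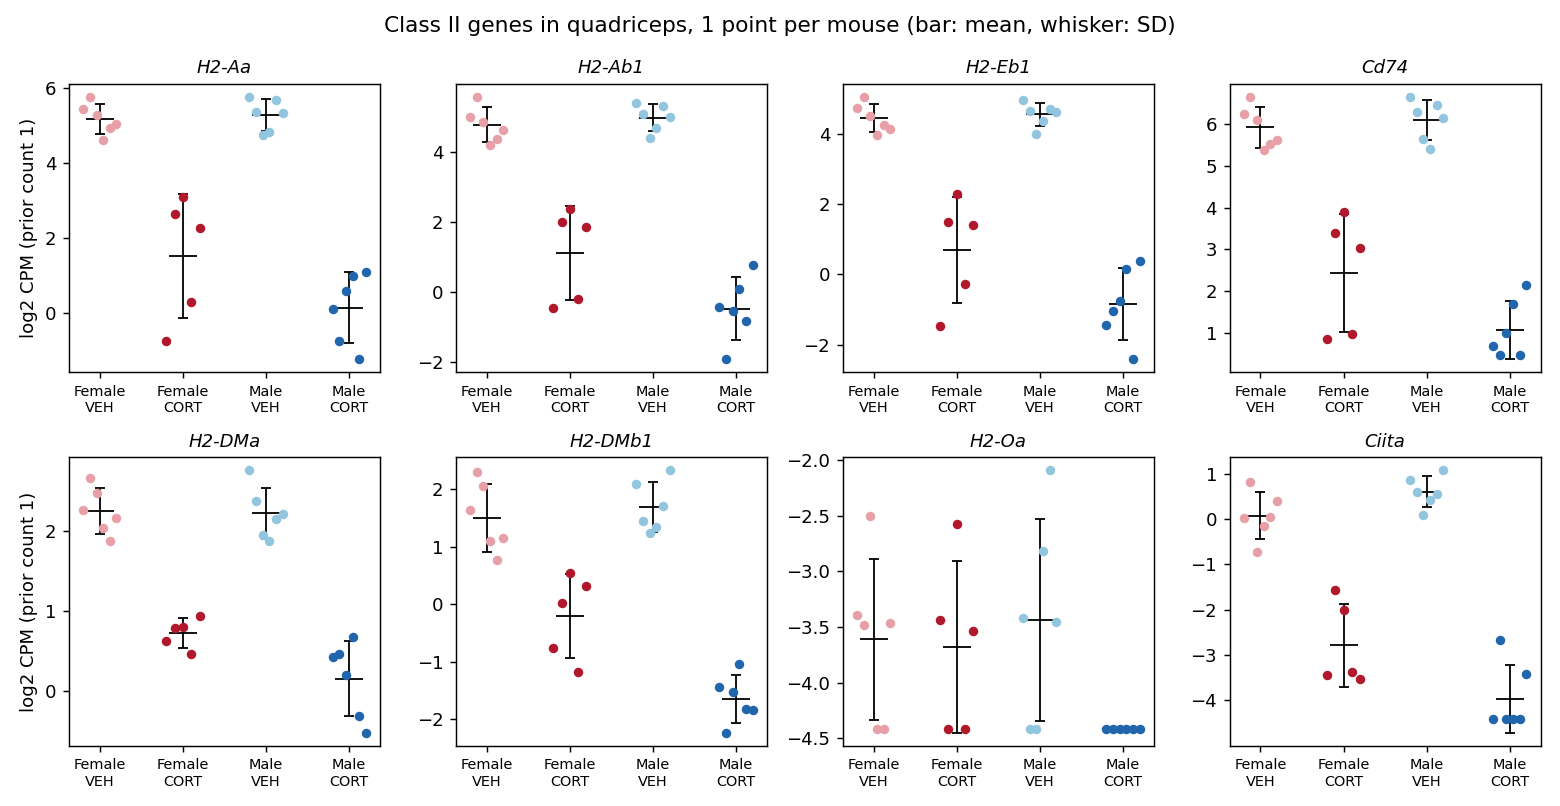
Level of the 8 genes in each mouse as log2 CPM with a prior count of 1, by group, with the group mean (bar) and SD (whisker). In all panels but that of H2-Oa the corticosterone mice lie below every vehicle mouse of their sex, and the corticosterone females split into 3 higher and 2 lower mice for H2-Aa, H2-Ab1, H2-Eb1 and Cd74.

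At an adjusted p of 0.01, 7 of the 7 members tested were lower with corticosterone in males, where 13.1% of all tested genes were lower, and 7 of 7 were lower in females, where 6.0% were. With no overlap between treated and vehicle mice, the same 7 members stood beside 11.1% of all tested genes in males and 4.34% in females. The response chose the members, so nothing is read from these counts. In addition 4 of the 7 members, H2-Ab1, H2-Eb1, H2-DMb1 and Ciita, passed the filter on low counts through vehicle groups alone. The median log2 fold change was -5.0 over the 7 members in males and -3.10 in females, against -0.02 and 0.04 over all genes tested. H2-DMb1 in females did not pass when each sex was fitted alone (log2 fold change -1.74), and the other 6 members passed in both sexes under each of the 29 alternatives that gave a value.

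The corticosterone females fell into 2 lower and 3 higher mice for the presenting chains, Cd74 and H2-DMb1. As a percentage of the mean of vehicle females, H2-Aa was at 1.47% in F2 and 3.17% in F8 but at 16.7% in F4, 22.6% in F6 and 12.8% in F10. The same split of mice appeared in H2-Ab1, with 2.34% and 2.88% in F2 and F8 against 12.4% to 17.8% in the other 3, and in H2-Eb1 and Cd74. In males H2-Aa ranged from 0.942% in M10 to 5.17% in M12. F2 and F8 therefore lay within the range of the corticosterone males for H2-Aa, H2-Ab1, H2-Eb1 and Cd74, and F4, F6 and F10 lay above it. H2-DMb1 was at 18.3% in F2 and 13.2% in F8 against 32.2%, 47.3% and 39.9% in F4, F6 and F10. H2-DMa had a narrower range in the same mice, 31.3% and 27.7% in F2 and F8 and 35.2% to 39.0% in the other 3. Ciita, at 1 read in F2, F8 and F10 and 5 or 6 reads in F6 and F4, was too sparse to place single mice. Ptprc and the summed list of general leukocyte genes were also lowest in F2 and F8. Ptprc (CD45) was at 1.68 and 0.935 CPM in F2 and F8 against 2.84, 3.27 and 3.26 CPM in F4, F6 and F10, and the summed leukocyte list was at 15.6 and 11.4 CPM against 21.8, 28.3 and 33.5 CPM. The dendritic cell list summed to 15.4 and 8.86 CPM in F2 and F8 and to 16.9 to 22.2 CPM in the other 3. The monocyte list had the same order, at 4.82 and 1.33 CPM against 5.70 to 10.8 CPM. Other lists did not. The macrophage list was at 221 and 119 CPM in F2 and F8 against 207, 318 and 379 CPM in F4, F6 and F10. The T and NK cell list was at 2.27 and 0.246 CPM against 0.482, 2.30 and 2.42 CPM. The B cell list was at 0.0909 and 0.541 CPM against 0.193, 0.242 and 0.437 CPM. The part of these cells in the split was not tested.

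**Figure D2:**
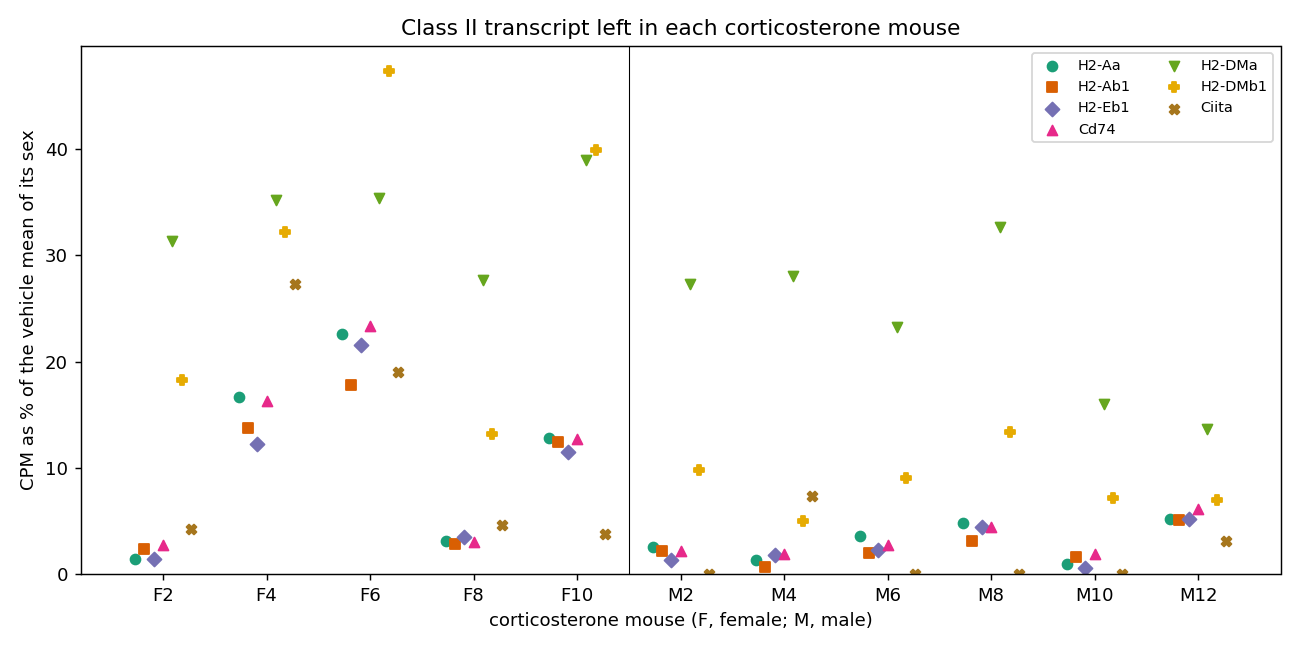
CPM of 7 members in each corticosterone mouse as a percentage of the mean of the vehicle mice of its sex. H2-DMa is the member with the most transcript left in 9 of the 11 mice, and F4, F6 and F10 hold more H2-Aa, H2-Ab1, H2-Eb1 and Cd74 than the other treated mice.

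To ask whether the sexes differed before treatment, vehicle males were tested against vehicle females, a comparison that did not choose the members. At an adjusted p of 0.01, 0 of the 7 members differed, where 0.958% of all tested genes did; at an unadjusted p of 0.05 the count was also 0, and DESeq2 and limma-voom gave 0 as well. The log2 difference, males minus females, was 0.11 (95% interval -0.65 to 0.88) for H2-Aa, 0.17 (-0.52 to 0.86) for H2-Ab1, and -0.02 (-0.38 to 0.35) for H2-DMa. Ciita had the highest point estimate, 0.50 (-0.15 to 1.16) with an adjusted p of 0.587 by edgeR's quasi-likelihood test. The intervals reached 0.92 for Cd74, so equality of the sexes is not shown.

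Among corticosterone mice, males were lower than females in all 7 members, as a description. The log2 difference was -1.76 ± 0.50 for H2-Aa, -1.83 ± 0.47 for H2-Ab1, -1.82 ± 0.50 for H2-Eb1, -1.69 ± 0.46 for Cd74, -1.65 ± 0.38 for H2-DMb1, -0.54 ± 0.21 for H2-DMa and -2.09 ± 0.77 for Ciita. The sexes overlapped in every member. At an adjusted p of 0.01, 5 of 7 passed, where 14% of all genes were lower in males. This count changed when single mice were left out, while the differences stayed between -3.08 and -0.434 under all alternatives. The number over all tested genes changed too. From 1828 genes lower in males it went to 1020 without F6, 1011 without F10 and 1366 without M4. It was 1982 without F4, 2061 with limma-voom and 1119 with the replicate number as a block. The count of members was 0 without F6, 1 without F4, F10, M4, M6 or M10, 2 without M2, and 0 with limma-voom or with the replicate number as a block.

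The difference between the male and the female log2 fold change, the interaction of sex and treatment, was -1.87 ± 0.63 for H2-Aa, -2.0 ± 0.59 for H2-Ab1, -1.91 ± 0.62 for H2-Eb1, -1.85 ± 0.60 for Cd74, -1.80 ± 0.47 for H2-DMb1, -0.52 ± 0.28 for H2-DMa and -2.59 ± 0.84 for Ciita. This difference is built from the contrasts that chose the members, so its values and the counts here are a description. All 7 were negative. At an adjusted p of 0.01, 0 of 7 passed by edgeR, where 0.690% of all genes did, and limma-voom also gave 0. By edgeR 6 of 7 had an unadjusted p below 0.05, a level for which no share over all genes is given. Without F8, 1 of the 2 females with the least class II transcript, 2 of 7 passed, H2-Ab1 and H2-DMb1, and the same 2 passed with DESeq2. More of all 13049 tested genes passed in these fits too. In the main fit 48 passed with a positive and 42 with a negative difference. Without F8 these numbers were 235 and 658, with DESeq2 422 and 474, and with limma-voom 188 and 505.

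**Figure D3:**
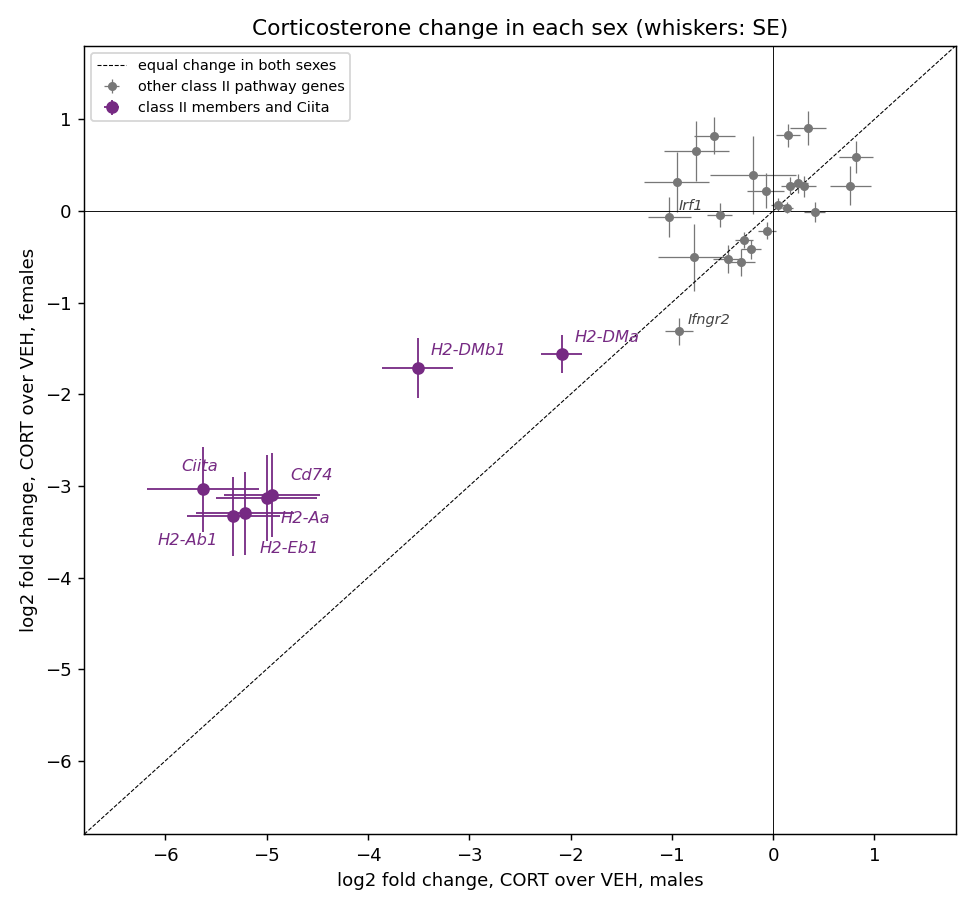
Log2 fold change of corticosterone over vehicle in males (horizontal) and in females (vertical) with SE whiskers, for the 7 members tested and the 24 other genes of the class II pathway tested; the dashed line marks equal change. The members lie above the line and at or below -1.56 on both axes, and the other pathway genes lie within 1.31 of 0.

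Other class II chain genes had too few reads for the test, and their group sums are given. H2-Ob, the beta chain of H2-O, had 93 reads in vehicle and 5 in corticosterone males, 18-fold fewer (95% exact counting interval 7.45 to 56.7), and 76 against 11 reads in females, 5.95-fold fewer (3.14 to 12.4). H2-DMb2, the second beta chain of H2-DM, had 50 reads in vehicle males and 0 in corticosterone males, and 82 against 7 reads in females. With the 0 set to 3 reads over the group, the males had 16.1-fold fewer, which leaves out the counting error of the 50 reads. In females F2, F6 and F8 had 0 reads of H2-DMb2, and F4 and F10 had 4 and 3. H2-Eb2 had 2 and 1 reads over the vehicle and corticosterone females and 3 and 0 over the males.

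A list of 31 other pathway genes held the class II chain genes above that are no members, none of which were tested. It also held the partners of Ciita on the promoter and the genes that process antigen or induce or repress Ciita. Of the 24 other pathway genes tested, 3 were lower and 3 higher in males, where 13.1% of all tested genes were lower and 13.2% higher, and 3 were lower and 3 higher in females, where 6.0% were lower and 7.40% higher. Their median log2 fold change was -0.14 in males and 0.14 in females. Rfx5, a DNA-binding subunit of the RFX complex, rose in males (log2 fold change 0.76 ± 0.20, adjusted p = 0.00503 by edgeR) and had 0.27 ± 0.21 in females (adjusted p = 0.36). Nfyb, a subunit of NF-Y, rose in males (0.41 ± 0.11, adjusted p = 0.00386). Rfxap, another RFX subunit, fell in females (-0.42 ± 0.10, adjusted p = 0.00432). Rfxank, Creb1, Nfya and Nfyc passed the test in neither sex, with log2 fold changes from -0.22 to 0.30. The call of Rfx5 was lost without M1, M3, M5, M8 or M12 (adjusted p up to 0.0141), that of Nfyb without M4 or M12 and with no gene filter (up to 0.0114) and that of Rfxap without F2, F6, F7, F9 or F10 and with each sex alone (up to 0.0199).

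Proteases of the endosome, which cut the invariant chain and prepare peptides, moved in both directions. Ctsl (cathepsin L) rose in males (log2 fold change 0.81 ± 0.17, adjusted p = 0.000614), and Ctsb (cathepsin B) rose in females (0.82 ± 0.12, adjusted p = 9.53e-05). Lgmn, an asparagine-specific endopeptidase, fell in males (-0.53 ± 0.12, adjusted p = 0.00163). Ctss (cathepsin S), the main invariant chain protease of antigen-presenting cells, had -0.76 ± 0.32 in males and 0.65 ± 0.33 in females, and neither passed. Ifi30 and March8, a reductase of antigen processing and a ubiquitin ligase, also passed in neither sex.

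Ciita is induced by interferon gamma through its receptor, JAK kinases and IRF1, among others. Ifng itself had 1 read in Male_CORT and 0 in the other groups. Ifngr2, the second chain of the receptor, fell in both sexes (log2 fold change -0.93 ± 0.14 in males, adjusted p = 1.98e-05, and -1.31 ± 0.15 in females, adjusted p = 5.13e-06), from between 1919 and 2335 reads in vehicle males to between 944 and 1226 in corticosterone males. Ifngr1 rose in females (0.90 ± 0.19, adjusted p = 0.00141), a call lost when each sex was fitted alone (adjusted p = 0.0219). Irf1 fell in males (-1.02 ± 0.21, adjusted p = 0.000679) and had -0.07 ± 0.22 in females. Irf8 fell in females (-0.56 ± 0.14, adjusted p = 0.00617). The female call of Irf8 held in 22 of 29 alternatives and was lost, among others, without F1, F6, F8, F9 or F11 (adjusted p up to 0.0271). Jak1, Jak2, Irf2, Irf4, Spi1 and Prdm1 passed in neither sex. Jak1 was near the threshold, at -0.29 ± 0.09 in males and -0.32 ± 0.09 in females (adjusted p = 0.0104 and 0.0127 by edgeR). Jak2 had -0.45 ± 0.14 and -0.53 ± 0.15 (adjusted p = 0.0164 and 0.0136 by edgeR). Spi1 had -0.95 ± 0.32 in males and 0.32 ± 0.32 in females.

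Among genes that answer to interferon gamma, 5 of 10 tested fell in males and 0 passed in females by edgeR, DESeq2 or limma-voom (1 of 10 at an unadjusted p of 0.05). Cxcl9, a T cell chemokine, had a log2 fold change of -2.07 ± 0.38 in males (adjusted p = 0.000225) and -0.08 ± 0.36 in females. Gbp2, a guanylate-binding protein, had -1.07 ± 0.26 in males (adjusted p = 0.00275) and 0.52 ± 0.27 in females. Iigp1, Gbp3 and Cd274 were the other 3, each called in 21 to 23 of 29 alternatives and lost, among others, without M2, M4, M7 or M11 (adjusted p up to 0.026). The interaction of sex and treatment passed for 0 of these 10 genes by edgeR, 3 by DESeq2 and 1 by limma-voom, and 6 had an unadjusted p below 0.05.

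MHC class I genes, which serve display to CD8+ T cells, had other values. In males 3 of 9 fell, the peptide transporter Tap1 (-1.43 ± 0.34, adjusted p = 0.00185) and the immunoproteasome subunits Psmb8 and Psmb9, both lost without M2, M4 or M11 among others (up to 0.0297). In females 4 of 9 rose, B2m (1.48 ± 0.35, adjusted p = 0.00357), H2-K1, H2-D1 and Tapbp, all 4 lost without F2, F6 or F10 and with each sex alone, where that of B2m reached up to 0.0419. The interaction passed for 0 of the 9 by edgeR but for 6 by DESeq2 and 6 by limma-voom, and 9 of 9 had an unadjusted p below 0.05. Of the costimulation genes, Cd83, a marker of mature dendritic cells that also keeps class II at the surface, fell in males (-2.11 ± 0.35, adjusted p = 6.32e-05) and had -0.50 ± 0.32 in females, while Cd86 and Icosl passed in neither sex.

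The class II interval of chromosome 17 also holds genes with other roles. Of 23 annotated genes from BC051537 to H2-Ea-ps, 10 were tested, 5 of them members. Of the other 5, Psmb9, Tap1 and Psmb8, which lie between H2-DMb1 and H2-Ab1, fell in males, Brd2, a chromatin reader, rose in males (0.29 ± 0.08, adjusted p = 0.00528), Tap2 did not pass, and 0 of the 5 passed in females by edgeR, DESeq2 or limma-voom (0 at an unadjusted p of 0.05).

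**Figure D4:**
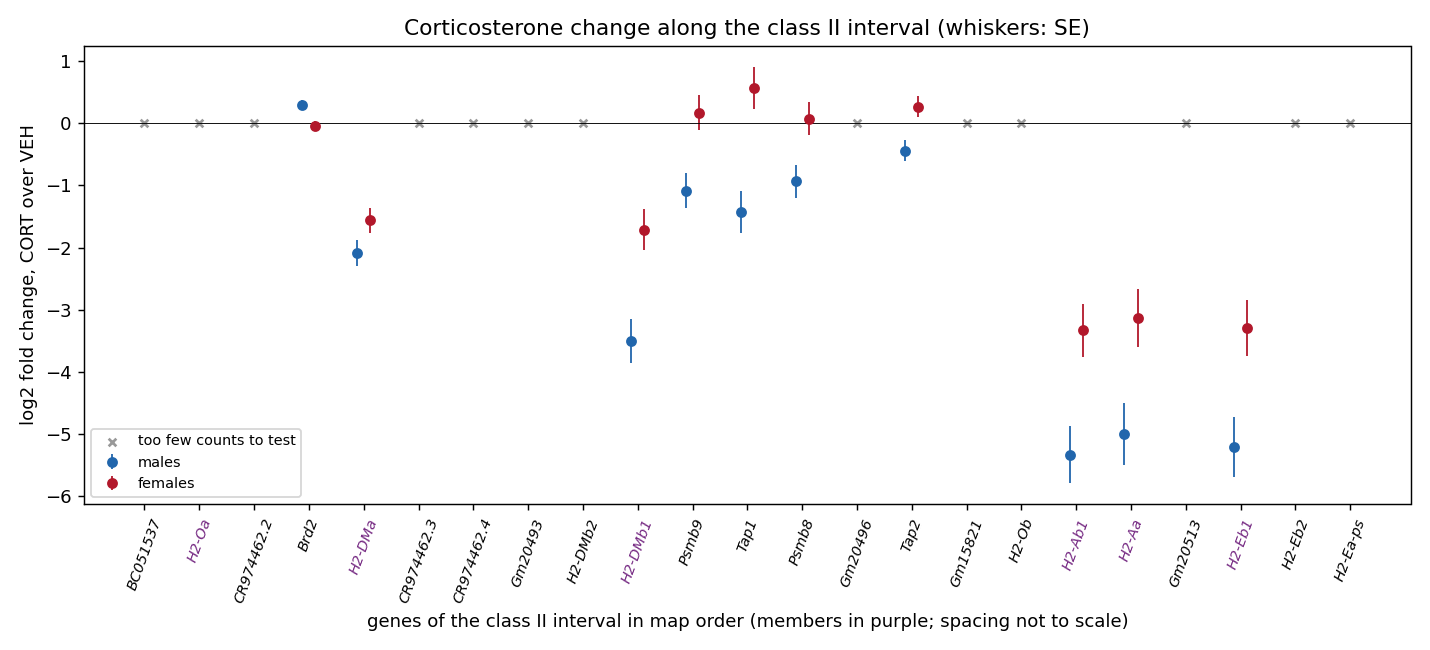
Log2 fold change with SE in males (blue) and females (red) for the genes of the class II interval in map order, with members in purple; crosses at 0 mark genes with too few counts to test. The 5 members tested lie below -1.5 in both sexes, and the 5 genes among them that are no members lie between -1.43 and 0.57.

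Markers of the cells that can carry class II were set beside these values, and their part in the results was not tested. In males 4 of 5 general leukocyte genes fell, among them Ptprc (CD45, log2 fold change -1.81 ± 0.35, adjusted p = 0.000339) and Cd52 (-2.16 ± 0.36, adjusted p = 8.3e-05), and the summed level of the list went from 16 to 31.3 CPM with vehicle to 6.19 to 11.1 CPM with corticosterone. In females 0 of 5 passed by edgeR, 2 by DESeq2 and 1 by limma-voom, 2 of 5 had an unadjusted p below 0.05, and the summed levels overlapped (12.5 to 37.4 CPM and 11.4 to 33.5 CPM). The interaction of sex and treatment had a median of -1.22 over these 5 genes. It passed for 0 of the 5 by edgeR, with unadjusted p from 0.00166 to 0.0409. The members' summed CPM over that of the leukocyte list was 6.45 to 9.89 in vehicle males and 0.376 to 1.05 in corticosterone males. In females it was 5.13 to 9.82 with vehicle and 0.351 to 1.30 with corticosterone, without overlap in either sex. The members were chosen for their fall, which by itself lowers this ratio, so the ratio is a description and nothing is read from it.

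In males 0 of the 12 macrophage genes passed by edgeR or limma-voom and 2 by DESeq2 (4 at an unadjusted p of 0.05), with summed CPM of 57.1 to 215 with vehicle and 95.9 to 134 with corticosterone. In females the sums were 82.2 to 184 and 119 to 379 CPM. Lyve1 (2.22 ± 0.41, adjusted p = 0.000618) and Mertk (1.13 ± 0.23, adjusted p = 0.00144), genes of resident macrophages, rose. Csf1r, Adgre1, Cd163 and C1qa passed in neither sex. Cd163 (1.36 ± 0.37) and Cd68 (1.10 ± 0.32) were near the threshold in females (adjusted p = 0.0108 and 0.0134 by edgeR). The median log2 fold change of the 12 genes was -0.39 in males and 0.99 in females. The interaction of sex and treatment had a median of -1.28. It passed for 0 of the 12 by edgeR, with unadjusted p from 0.00213 to 0.0642. The members' summed level over that of the macrophage list was 0.876 to 2.19 in vehicle males and 0.0254 to 0.106 in corticosterone males, and 1.02 to 1.61 against 0.0247 to 0.127 in females. This ratio is likewise a description, since the choice of members lowers it.

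Of the 9 dendritic cell genes, 3 had enough reads to be tested. Cd209a (DC-SIGN), a lectin of monocyte-derived dendritic cells and some macrophages, fell in males (-4.45 ± 0.40, adjusted p = 6.88e-08) and females (-2.95 ± 0.38, adjusted p = 1.92e-05), from 24 to 56 reads in vehicle males to 0 to 3 in corticosterone males. The treated and vehicle mice did not overlap. Zbtb46 and Clec10a passed in neither sex. Clec9a and Xcr1, which mark the cross-presenting dendritic cells, had 23 and 19 reads over the vehicle males, 2 and 0 over the corticosterone males, 32 and 17 over the vehicle females, and 1 each over the corticosterone females. Reads over vehicle and corticosterone males were 42 and 4 for Batf3, 23 and 1 for Flt3, 50 and 26 for Itgax and 9 and 2 for Ccr7. Over the females they were 68 and 21, 16 and 5, 89 and 45, and 7 and 2. Of the 4 monocyte genes, 2 were tested. Ccr2, the chemokine receptor of monocytes and their progeny, fell in males (-3.30 ± 0.44, adjusted p = 7.15e-06) and females (-1.81 ± 0.42, adjusted p = 0.00372), a female call lost without F2 or F6 and when each sex was fitted alone (adjusted p up to 0.022). Plac8 passed in neither sex (-0.92 ± 0.68 in males and 1.02 ± 0.64 in females), and Ly6c2 had 17 and 6 reads over the vehicle and corticosterone males and 13 and 23 over the females. Cx3cr1 had 56 and 13 reads over the vehicle and corticosterone males and 89 and 53 over the females. The summed list was at 4.04 to 8.89 and 0.442 to 2.30 CPM in vehicle and corticosterone males, and overlapped in females at 3.32 to 12.8 and 1.33 to 10.8 CPM.

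B cells also carry class II, and the 7 B cell genes had few reads. Their summed level was 0.752 to 3.56 CPM in vehicle males and 0.150 to 0.574 CPM in corticosterone males, and 0.586 to 5.22 against 0.0909 to 0.541 CPM in females. The corticosterone mice thus lay below the vehicle mice in both sexes, but none of the 7 genes had enough reads to be tested. The T and NK cell list also had few reads, with at most 2.42 CPM in any mouse and none of its 12 genes tested. Its treated and vehicle mice overlapped, at 0.563 to 1.48 CPM with vehicle and 0.108 to 0.829 with corticosterone in males. In females it was at 0.662 to 1.73 and 0.246 to 2.42 CPM, and F2, F6 and F10 lay above every vehicle female. Of 7 endothelial genes, Tek fell in males (-0.52 ± 0.14, adjusted p = 0.00616) and the rest passed in neither sex. Of the 5 fibroblast genes, Col1a1 (-3.26 ± 0.36, adjusted p = 7.26e-07), Col3a1 and Lum fell in males, and 2, Col3a1 and Lum, in females. Dcn (-0.41 ± 0.15 in males and 0.26 ± 0.15 in females) and Pdgfra (-0.35 ± 0.13 and 0.15 ± 0.13) passed in neither sex. Of 5 erythroid genes 4 rose in each sex.

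**Figure D5:**
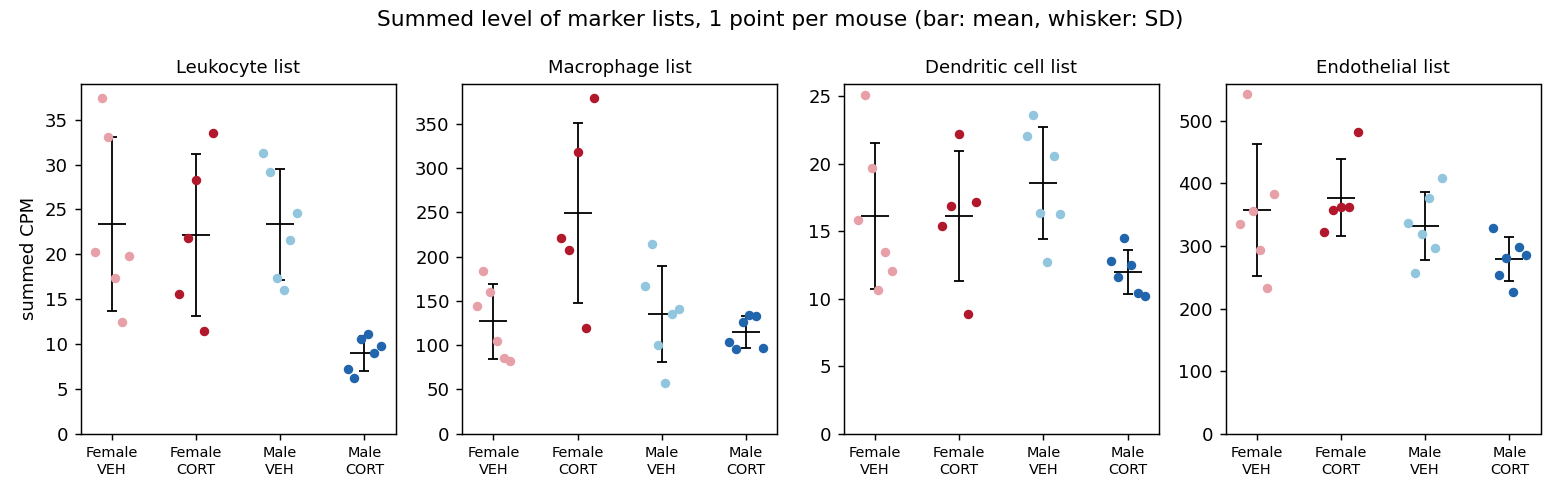
Summed CPM of the leukocyte, macrophage, dendritic cell and endothelial marker lists in each mouse, with the group mean (bar) and SD (whisker). The leukocyte sums of the corticosterone males (6.19 to 11.1) lie below those of all other male mice, while the macrophage sums of the groups overlap in both sexes.

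Relations among the 12 vehicle mice, which the choice of members did not use, were computed for 13 pairs on log2 CPM as deviations from the mean of each sex. H2-Ab1 followed Ptprc with Pearson r = 0.881 (n = 12, permutation p = 0.00051, adjusted 0.00663, two-sided) and Spearman rho = 0.839 (permutation p = 0.0017, adjusted 0.0221). Without the 2 mice farthest from the median of Ptprc r was 0.862, and within the sexes it was 0.929 in males and 0.868 in females. The adjusted permutation p was 0.0669 without F3, the only mouse whose omission took it past 0.05. With the mean of the macrophage list r was 0.750 (permutation p = 0.00733, adjusted 0.0476) and rho 0.706 (permutation p = 0.0184, adjusted 0.0797), and the adjusted p of r stayed below 0.05 in 4 of the 12 fits that left out a mouse (0.0333 to 0.185). With the dendritic cell list r was 0.735 (permutation p = 0.0132, adjusted 0.0574), rho 0.762 (permutation p = 0.00862, adjusted 0.056) and r without the 2 farthest mice 0.537; with a prior count of 5 this r was 0.842 (adjusted permutation p = 0.00994).

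Ciita and its targets were less closely related among vehicle mice than H2-Ab1 and Ptprc in these point estimates, a difference that was not tested. Pearson r of Ciita was 0.510 with H2-Aa, 0.550 with H2-Ab1, 0.523 with H2-Eb1, 0.435 with Cd74, 0.377 with H2-DMa, 0.369 with H2-DMb1 and -0.0597 with H2-Oa, with adjusted permutation p from 0.24 to 0.852, and Spearman rho was between -0.133 and 0.503 (adjusted permutation p from 0.309 to 0.683). Without the 2 mice farthest from the median of Ciita, r of the pairs with H2-Aa, H2-Ab1, H2-Eb1, Cd74, H2-DMa and H2-DMb1 was 0.460 to 0.634, and with H2-Oa 0.281. With 13 to 46 reads of Ciita per vehicle mouse, counting error adds to its spread. Without F5, the mouse with 13 reads, 5 of these pairs passed an adjusted p of 0.05, and r with H2-Ab1 was 0.761. Without F3 none passed, and r of Ciita was 0.282 with H2-Ab1, 0.319 with H2-Aa, 0.277 with H2-Eb1, 0.184 with Cd74, 0.137 with H2-DMa and 0.0859 with H2-DMb1 (adjusted permutation p from 0.693 to 0.813). The B cell, T and NK cell and endothelial lists had r of 0.177, 0.425 and 0.509 with H2-Ab1 (adjusted permutation p 0.659, 0.286 and 0.249) and rho of 0.140, 0.322 and 0.266 (adjusted permutation p 0.683, 0.435 and 0.504). Without the 2 farthest mice these r were -0.133, 0.660 and -0.0321, and within sexes the r of the endothelial list was -0.229 in males and 0.837 in females, so that relation did not hold within both.

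The genes whose level followed the mean of the 7 members most closely over the 12 vehicle mice were Ms4a4d (r = 0.948), Man2b1 (0.937), Man2b2 (0.928), Smpd3 (0.926), Ace (0.915), Dab2 (0.915), Edem2 (0.908), Myo1f (0.908), Arhgap30 (0.905) and Npr1 (0.904). They were picked as the highest of all tested genes, so these r are a description with no test, and all points share a library with the members. With corticosterone Ms4a4d, the closest of them, had a log2 fold change of -0.08 ± 0.14 in males and 0.27 ± 0.14 in females and passed in neither sex. Ace (-1.10 ± 0.18, adjusted p = 7.3e-05), Dab2 (-1.05 ± 0.20, adjusted p = 0.000331) and Arhgap30 (-1.29 ± 0.34, adjusted p = 0.00502) fell in males. In females none of the 10 fell, and Man2b2 (0.99 ± 0.19, adjusted p = 0.000842) and Edem2 (0.61 ± 0.14, adjusted p = 0.00412) rose.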

How the data were processed

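Quadriceps RNA of 23 individual mice was sequenced as stranded, 100 bp paired-end libraries. The authors aligned reads to mm10 with STAR 2.7.3a and counted uniquely assigned reads per Ensembl gene with HTSeq 0.12.4 on the reverse strand. The deposited file holds these raw counts, which were used as deposited. Reads in the 5 summary rows that name no gene (10.7% to 15.3% of a library) were left out.

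Genes with over 20 normalised counts (median of ratios) in at least 4 mice of 1 group were tested (13049), as in the study's methods. edgeR 4.0.16 (R 4.3.3; TMM, quasi-likelihood test) fitted all 4 groups at once, and p-values were adjusted over all tested genes by Benjamini-Hochberg, with a threshold of 0.01. SE is the log2 fold change divided by the root of F. Log2 CPM carry a prior count of 1. Relations used two-sided permutation within sex (100000 resamples, scipy 1.17.1) with a threshold of 0.05. Symbols, exon lengths and coordinates are from GENCODE M21 (GRCm38). Replicates are separate mice. Scripts were tested on simulated data.

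The members, gene lists and tests were chosen with earlier results of these data known. Named genes are the 8 members, genes of the lists that a sentence needs, and the 10 genes closest to the members over vehicle mice. Alternatives were median-of-ratios scaling, edgeR's filterByExpr, no gene filter, DESeq2 1.42.0, limma-voom 3.58.1 with quality weights, each sex alone, a replicate block, leaving out each mouse and, for relations, a prior count of 5. The result of 1 gene of the lists is not reported here, although the gene is in the counts over its list.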

Additional observations from a re-analysis of the deposited data

Results flagged for a closer look

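The response of Col3a1, a fibrillar collagen of the fibroblast list, differed between the sexes by a test of the difference itself (edgeR, interaction of sex and treatment). The male minus the female log2 fold change was -2.61 ± 0.49 (adjusted p = 0.00781). The call held in 11 of 29 alternatives, and the adjusted p rose to at most 0.0206 in the others. No mouse stood apart from its group by Dixon's test in the 28 sets of values of the members examined, where chance alone would mark about 1 set in 20.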

How the results depend on the processing

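The members' direction with corticosterone was the same in both sexes under the 29 alternatives, with log2 fold changes of -6.62 to -1.96 in males and -4.27 to -1.46 in females. Genes at very low counts, the 5-mouse female group and the sparse reads of Ciita limit the precision. The members passing between the sexes with corticosterone numbered 5, but 2 with no gene filter, 0 with limma-voom, 0 with the replicate block and 0 to 5 without 1 mouse. For the interaction they numbered 0, but 2 with DESeq2 and 0 to 2 without 1 mouse. The numbers over all tested genes changed between these fits too, as given above. The other pathway genes lower in males numbered 3, but 6 with filterByExpr, 5 with no gene filter, 6 with limma-voom and 3 to 5 without 1 mouse; those higher in males numbered 1 to 3 without 1 mouse. In females those lower numbered 3, but 5 with filterByExpr, 5 with DESeq2, 1 with each sex alone and 1 to 5 without 1 mouse, and those higher numbered 1 with each sex alone and 2 to 4 without 1 mouse. Of 13 relations 2 passed, and 0 to 8 without 1 mouse. The causes were not tested. Vehicle differences near 0 changed sign without 1 mouse: H2-DMa (0.071, 0.026, 0.035, 0.047 and 0.00064 without F3, F5, M5, M7 and M9; range -0.146 to 0.071), H2-Eb1 (-0.0017 without M1; up to 0.231) and H2-DMb1 (-0.0071 without M11; up to 0.331); r of Ciita with H2-Oa was 0.333 without F5 (range -0.268 to 0.333). Mice of the 2 sexes share numbers, but the deviations of the 11 same-numbered pairs correlated at 0.0846 to 0.477 in the 6 vehicle pairs and -0.377 to 0.242 in the 5 corticosterone pairs, 7 of 11 above 0.1, and 4 of 11 females matched their own number best. Since not every pair was above 0.1 and no label ties the numbers to a litter or day, the mice were not treated as paired; pairing among the vehicle mice remains possible, and its part in the relations was not tested. Under the block 0 members passed in vehicle mice or for the interaction.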
